A study of Homo sapiens with 3 samples.

Results

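A set of 9 genes of the Polycomb repressive complexes were followed in untreated HEK293T cells: EED, SUZ12 and JARID2 of Polycomb repressive complex 2 (PRC2), and RING1, RNF2, BMI1, PCGF2, CBX2 and CBX8 of Polycomb repressive complex 1 (PRC1). They were taken by symbol from the deposited transcript table, in which the values of all transcripts of a symbol were summed, and all 9 were found among 35880 gene symbols. HEK293T cells descend from human embryonic kidney, express the SV40 large T antigen and are much used for transfection. The cells grew in high-glucose DMEM with 10% fetal bovine serum, received no treatment and were harvested at 70% confluence, and polyadenylated RNA was made into 3 directional libraries, labelled as biological replicates 1, 2 and 3 of a single group. Whether these came from separate cultures is not stated, so the p-values below rest on differences among 3 libraries that may be no more than technical. RNA came from whole cultures, in which fewer cells expressing a gene and less RNA per cell cannot be told apart.

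Polycomb complexes keep developmental genes silent by modifying the histones around them. PRC2 methylates a lysine in the tail of histone H3, and its product is bound by EED within the same complex and by the CBX subunits of PRC1. PRC1 attaches ubiquitin to histone H2A through a RING protein, RING1 or RNF2, paired with a PCGF protein such as BMI1 or PCGF2, and JARID2 in turn is a PRC2 partner that binds ubiquitinated H2A.

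Abundance was given for 185299 transcripts as TPM, each transcript's part of the library's transcripts after correction for its length. The step size among low values put the depth at about 33200000, 33700000 and 33600000 reads in replicates 1, 2 and 3. The 7 genes chosen as known from HEK293T cells, among them VIM, neurofilament and keratin genes, were all above 1 TPM. Of 8 markers of blood, endothelial and adult kidney tubule cells, 0 were above 1 TPM, 4 were below and 4 were listed at 0 in every library (CD3E, HBB, UMOD and AQP2), with PTPRC highest at 0.320 TPM.

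Every one of the 9 Polycomb genes was transcribed well above 1 TPM, and their summed levels spanned 15.7 TPM in JARID2 to 83.3 TPM in BMI1. All 9 passed limma's test of a level above 1 TPM, as did 58.5% of the 21990 symbols tested, with Benjamini-Hochberg adjusted p from 2.34e-09 (CBX2) to 2.30e-07 (CBX8). The median of the 9 was 39.9 TPM, against 4.29 TPM over all tested genes. In descending order the means were those of BMI1, CBX2, RING1, SUZ12, RNF2, PCGF2, EED, CBX8 and JARID2, so by this sum PRC1 genes held the 3 highest places and a PRC2 gene the lowest. Neither held in every way of summing: CBX8 was lowest with transcripts of at least 1000 bases and with reads over the longest transcript, and SUZ12 was second with its pseudogene added.

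**Figure D1:**
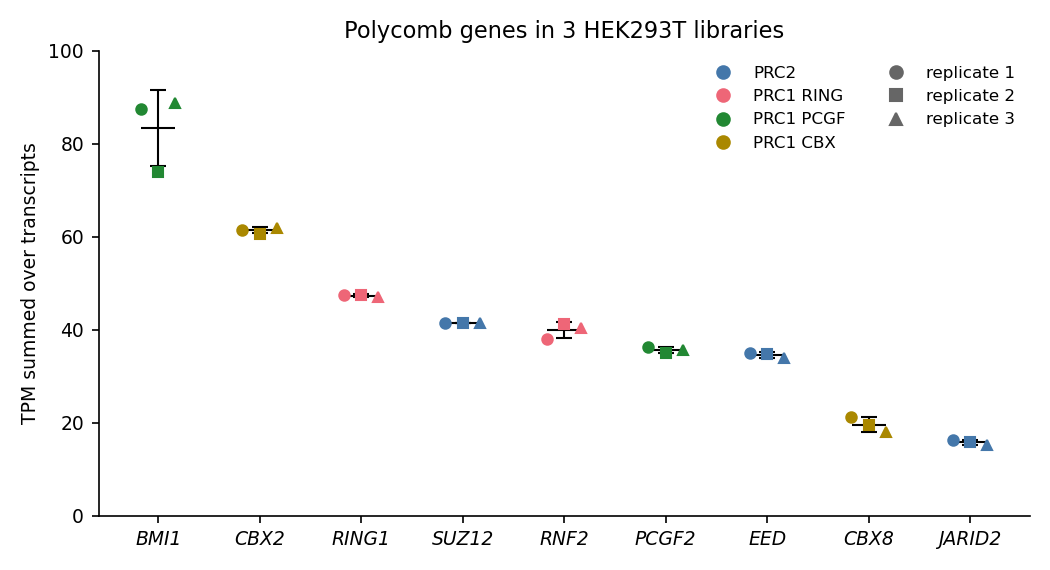
Summed TPM (vertical axis, linear from 0) of the 9 genes in the 3 libraries, with symbols for replicates, colours for the kind of subunit, and bars for the mean ± SD. BMI1 runs from 73.9 to 88.7 TPM and stands apart from the rest, SUZ12 is nearly the same in all 3, and JARID2 lies lowest at 15.3 to 16.2 TPM.

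Among the PRC2 genes, SUZ12 was the most abundant, EED somewhat lower and JARID2 far lower. SUZ12, the core subunit that holds PRC2 together and anchors it to chromatin, lies at chr17:31937018-32001045 on the plus strand (hg38) and was at 41.4, 41.4 and 41.5 TPM, a mean of 41.4 ± 0.0656 TPM (SD, n = 3). EED, the subunit that reads trimethylated histone H3, lies at chr11:86244544-86278813 on the plus strand and was at 35.0, 34.7 and 33.8 TPM, a mean of 34.5 ± 0.624 TPM (SD, n = 3). The libraries of the genes did not overlap: SUZ12 exceeded EED in 3 of 3 libraries by 0.26 on the log2 scale (SE 0.02, 95% interval 0.20 to 0.32, limma adjusted p = 0.000249), which is 1.20-fold. EED thus supplied 45.8%, 45.6% and 44.9% of the TPM of the pair, 45.4% ± 0.489 (SD, n = 3). The size of the log2 difference depended on the way of summing. It was 0.29 with transcripts of at least 1000 bases alone and 0.38 with coding transcripts only. With reads over the longest transcript it was 0.79, and with the pseudogene SUZ12P1 added to SUZ12 it was 1.21.

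SUZ12 was read almost wholly from its full-length transcript. SUZ12-201, of 4491 bases, held 89.3% ± 1.66 of its TPM, and SUZ12-204, of 3977 bases, held 9.18% ± 0.641 (SD, n = 3). Reads of SUZ12 can, however, fall on a partial copy of the gene, SUZ12P1, a transcribed pseudogene at chr17:30709299-30790908. It was listed at 36.6, 36.8 and 42.3 TPM (38.6 ± 3.21, SD, n = 3), close to the summed TPM of SUZ12. Entries shorter than 1000 bases held 94.4% ± 0.295 of the TPM of SUZ12P1 (SD, n = 3) but 0% of that of SUZ12. TPM is corrected for length, so near-equal TPM does not mean near-equal reads here. Of all 31-base words in SUZ12 transcripts, 9.16% also occur in SUZ12P1. Of the words of SUZ12-201 alone, 13.4% occur under another symbol. The longest identical run between the coding part of SUZ12-201 and a SUZ12P1 transcript is 178 bases. A stretch that ends at a difference is shown here because it displays how little separates the transcripts up to that base. Both are from GENCODE 29, 90 bases long, 5′ to 3′, running from coding base 2 of SUZ12-201 and from transcript base 182 of SUZ12P1-201, with the 1 differing base in capitals.
SUZ12: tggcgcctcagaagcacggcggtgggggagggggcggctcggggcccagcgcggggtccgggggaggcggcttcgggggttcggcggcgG
SUZ12P1: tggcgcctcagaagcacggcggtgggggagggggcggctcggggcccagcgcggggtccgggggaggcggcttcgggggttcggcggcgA
The stretches are 98.9% identical. With SUZ12P1 added, SUZ12 stood at 80.0 ± 3.27 TPM, above RING1 and CBX2. Of the 31-base words of SUZ12P1, however, only 15.5% occur in SUZ12, so this sum also counts sequence that SUZ12 lacks.

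EED was spread over more transcripts. EED-201, of 2223 bases, held 53.5% ± 5.13 of its TPM and EED-203, of 1696 bases, held 28.5% ± 5.50 (SD, n = 3). EED-201 gave 16.7, 19.4 and 19.3 TPM in replicates 1, 2 and 3, and EED-203 gave 12.0, 8.16 and 9.31 TPM. The library lowest in EED-201 was thus the highest in EED-203, while the gene sum moved by little.

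JARID2, a PRC2 partner that helps direct the complex to its targets, lies at chr6:15246296-15522040 on the plus strand and was at 16.2, 15.7 and 15.3 TPM, a mean of 15.7 ± 0.466 TPM (SD, n = 3). It was below SUZ12 in 3 of 3 libraries by 1.39 on the log2 scale (SE 0.03, limma adjusted p = 3.76e-06), or 2.62-fold, and supplied 28.2%, 27.5% and 26.9% of the TPM of JARID2 and SUZ12 together. Only 1 of its 31-base words occurs in a transcript of another symbol, so its level is little exposed to sharing with annotated transcripts of the same sense.

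JARID2 transcription was assigned to a pair of annotated starts. JARID2-201, which starts at base 15246296, held 89.1%, 91.8% and 89.1% of the TPM in replicates 1, 2 and 3, and JARID2-202, which starts at base 15248855, held 9.50% ± 1.36 (SD, n = 3). The transcripts are nearly equally long, at 5755 and 5595 bases, and the shares of estimated reads were much the same, 90.7% and 9.29%. The windows of 250 bases before the starts in RefSeq (GRCh38.p14, plus strand) are shown because they belong to the major and the minor start, with each CG dinucleotide in capitals. The RefSeq start of the upstream window lies 227 bases before that of JARID2-201, and the downstream window ends exactly at the start of JARID2-202.
chr6:15245819-15246068: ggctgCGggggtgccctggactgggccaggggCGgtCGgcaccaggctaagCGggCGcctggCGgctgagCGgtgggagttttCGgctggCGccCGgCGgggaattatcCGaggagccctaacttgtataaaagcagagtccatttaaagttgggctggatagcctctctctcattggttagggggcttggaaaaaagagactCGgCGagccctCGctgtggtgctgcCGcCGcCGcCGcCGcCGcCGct
chr6:15248605-15248854: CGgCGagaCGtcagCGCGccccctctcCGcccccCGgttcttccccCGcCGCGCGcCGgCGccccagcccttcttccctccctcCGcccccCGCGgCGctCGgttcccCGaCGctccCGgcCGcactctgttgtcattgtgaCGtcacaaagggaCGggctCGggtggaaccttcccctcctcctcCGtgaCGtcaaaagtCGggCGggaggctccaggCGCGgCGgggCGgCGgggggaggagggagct
The window of the major start held 22 CG and that of the minor start 34. Of 35116 promoter windows of this length, 28.0% held at least 22 and 6.84% at least 34, with a median of 11 and a median GC content of 58%. The antisense gene JARID2-AS1 begins at the edge of the downstream window. CG counts read the same on both strands. Entries were found for 7 of the 9 genes and not for CBX2 and CBX8. Windows of the others held 34 CG in SUZ12, RING1 and RNF2, 35 and 54 in BMI1, 11 in EED and 1 in PCGF2. The window with 54, a count reached by 0.0399% of all windows, lies past the start of BMI1-201. That of PCGF2 lies before the start of PCGF2-202 and not before that of the main PCGF2 transcript. The window of EED lies before the start of EED-207, which held 3.45% ± 0.150 of the TPM of EED (SD, n = 3). The main transcript EED-201 starts inside that window, at base 86244544, so the count of 11 does not describe the bases before the main start.

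Of the catalytic RING subunits of PRC1, RING1 was the more abundant, by an amount that depended on the transcripts counted. RING1 lies at chr6:33208495-33212722 on the plus strand and was at 47.5, 47.4 and 47.1 TPM, a mean of 47.3 ± 0.233 TPM (SD, n = 3). RNF2, also called RING1B, lies at chr1:185045364-185102608 on the plus strand and was at 38.1, 41.3 and 40.4 TPM, a mean of 39.9 ± 1.68 TPM (SD, n = 3). The groups of values did not overlap, and RING1 exceeded RNF2 in 3 of 3 libraries by 0.25 on the log2 scale (SE 0.03, 95% interval 0.16 to 0.33, limma adjusted p = 0.00108). RNF2 made up 44.5%, 46.5% and 46.2% of their joint TPM, 45.7% ± 1.11 (SD, n = 3). The difference was 0.93 on the log2 scale with transcripts of at least 1000 bases alone and 1.15 with reads over the longest transcript, while RNF2 held 49.7% of the estimated reads of the pair.

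The RING genes can be told apart by reads. The most alike 60-base stretches of their coding sequences (GENCODE 29, from coding base 250 of RING1-201 and 259 of RNF2-202) have 11 differing bases, in capitals, and cover the end of the RING finger. They show the closest approach of the paralogs.
RING1: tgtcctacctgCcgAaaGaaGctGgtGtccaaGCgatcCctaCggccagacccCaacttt
RNF2: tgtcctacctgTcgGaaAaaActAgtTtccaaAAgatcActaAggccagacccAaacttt
The longest identical run between the coding sequences was 12 bases, and RING1 shares 0 of its 31-base words with transcripts of any other symbol. RNF2 shares 6.19% of its words, and 3.98% of its words occur in the pseudogene RNF2P1.

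RING1 and RNF2 differed in how their sums were made up. RING1 had 12 entries in the table, 10 of them unmatched to the GENCODE 29 annotation, and RING1-201, of 1752 bases, held 87.0% ± 8.68 of the TPM over its 3 identical entries (SD, n = 3). RING1-201 was at 37.3, 41.0 and 45.2 TPM while an unmatched entry of 1750 bases was at 9.68, 4.64 and 1.16 TPM, so the transcripts moved in opposite directions under a sum that stayed within 0.233 TPM (SD). RNF2 was divided among RNF2-203 of 939 bases (36.7% ± 0.437), RNF2-202 of 3606 bases (32.0% ± 2.40) and RNF2-201 of 1677 bases (30.2% ± 3.17, SD, n = 3). By estimated reads the order was different, since the long RNF2-202 held 60.3%, RNF2-201 24.6% and RNF2-203 14.8%.

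BMI1 was the most abundant of the 9 by summed TPM and also the most variable. BMI1, or PCGF4, which pairs with the RING subunit in canonical PRC1, lies at chr10:22321211-22331484 on the plus strand and was at 87.4, 73.9 and 88.7 TPM, a mean of 83.3 ± 8.17 TPM (SD, n = 3). PCGF2, also called MEL18, its close paralog, lies at chr17:38733897-38749817 on the minus strand and was at 36.2, 34.9 and 35.6 TPM, a mean of 35.5 ± 0.658 TPM (SD, n = 3). Replicate 2 was the lowest library in both genes, though by far more TPM in BMI1. BMI1 exceeded PCGF2 in 3 of 3 libraries by 1.22 on the log2 scale (95% interval 1.05 to 1.40, limma adjusted p = 5.01e-05, with the spread of both genes joined), or 2.33-fold, and made up 70.7%, 67.9% and 71.4% of their joint TPM, 70.0% ± 1.82 (SD, n = 3).

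At their closest coding stretch the PCGF paralogs differ at as many bases as the RING genes. The most alike 60-base stretches of their coding sequences (GENCODE 29, from coding base 17 of both BMI1-201 and PCGF2-207) have 11 differing bases, in capitals, and lie at the beginning of the RING finger.
BMI1: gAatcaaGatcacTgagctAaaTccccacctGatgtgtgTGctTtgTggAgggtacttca
PCGF2: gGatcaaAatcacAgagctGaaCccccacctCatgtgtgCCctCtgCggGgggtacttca
Their longest identical run was 14 bases, and PCGF2 shares 0 of its 31-base words with other symbols. BMI1 shares 22.1% of its words, and BMI1-201 alone shares 28.6% of its own. All the shared words of the gene occur in COMMD3-BMI1, an annotated readthrough from the upstream gene COMMD3, which ends 902 bases before BMI1. COMMD3-BMI1 was listed at 18.3, 14.3 and 19.9 TPM (17.5 ± 2.90, SD, n = 3), lowest in replicate 2 like BMI1. With it added, BMI1 stood at 100.8 ± 11.0 TPM. Entries shorter than 1000 bases held 93.9% ± 1.83 of the TPM of COMMD3-BMI1 (SD, n = 3).

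A large part of the TPM of BMI1 lay in short transcripts. BMI1-201, the full-length transcript of 3428 bases, was at 44.3, 43.6 and 45.0 TPM and so varied little. The 9 other entries of the gene are all shorter than 1000 bases, and together they held 46.5% ± 4.75 of the TPM but 7.91% ± 1.33 of the estimated reads (SD, n = 3). The largest of these, BMI1-202 of 406 bases, was at 18.7, 9.44 and 13.6 TPM and held 16.5% of the TPM on 1.82% of the reads. The dip of BMI1 in replicate 2 is thus seen in the short entries and much less in BMI1-201. BMI1 exceeded PCGF2 in every way of summing tried, though by different amounts: by 0.32 on the log2 scale with transcripts of at least 1000 bases alone (limma adjusted p = 9.90e-07) and by 1.14 when each gene's reads were divided by the effective length of its longest transcript (limma adjusted p = 5.72e-07). It made up 71.3% of the estimated reads of the pair. PCGF2 was divided among several protein-coding transcripts, PCGF2-207 with 28.1% ± 2.11, PCGF2-202 with 21.3% ± 2.39, PCGF2-205 with 21.02% ± 4.07 and PCGF2-206 with 16.4% ± 6.26 of its TPM (SD, n = 3). Each of these was present as 2 entries, 1 of them unmatched to the annotation.

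Of the chromodomain subunits, which bind methylated histone H3 and compact chromatin, CBX2 was far above CBX8. CBX2 lies at chr17:79778132-79787983 on the plus strand and was at 61.4, 60.7 and 62.0 TPM, a mean of 61.4 ± 0.647 TPM (SD, n = 3). CBX8 lies at chr17:79792132-79801683 on the minus strand and was at 21.2, 19.6 and 18.0 TPM, a mean of 19.6 ± 1.62 TPM (SD, n = 3). The genes are neighbours that point at each other, with 4148 bases between their ends. CBX2 exceeded CBX8 in 3 of 3 libraries by 1.65 on the log2 scale (SE 0.06, limma adjusted p = 3.02e-06), or 3.13-fold, and CBX8 made up 25.7%, 24.4% and 22.5% of their joint TPM, 24.2% ± 1.62 (SD, n = 3). The difference was larger, 2.74 on the log2 scale, with transcripts of at least 1000 bases alone, and 2.37 with reads over the longest transcript.

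By their closest coding stretches, CBX2 and CBX8 were the least alike of the paralog pairs. Likeness over the whole coding sequence was not computed. Their most alike 60-base coding stretches (GENCODE 29, from coding base 127 of CBX2-202 and 124 of CBX8-201), which fall in the chromodomain, have 16 differing bases, in capitals.
CBX2: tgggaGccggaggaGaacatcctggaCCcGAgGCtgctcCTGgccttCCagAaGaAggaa
CBX8: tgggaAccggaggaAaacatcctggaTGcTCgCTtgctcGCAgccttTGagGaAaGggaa
Their longest identical run was 11 bases, and neither gene shares a 31-base word with another symbol. CBX2-202, of 4644 bases, held 83.8% ± 1.01 of the TPM of CBX2 and 97.2% of its estimated reads. CBX8-201, of 3791 bases, held 43.7% ± 6.13 of the TPM of CBX8 and 83.8% of its reads, while CBX8-202, of 777 bases, held 41.7% ± 2.84 of the TPM on 12.7% of the reads, and CBX8-203, of 665 bases, held 11.9% ± 4.19 of the TPM (SD, n = 3). CBX8-201 was at 7.98, 8.56 and 8.96 TPM, so that its lowest library was replicate 1, which was the highest for the gene sum.

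**Figure D2:**
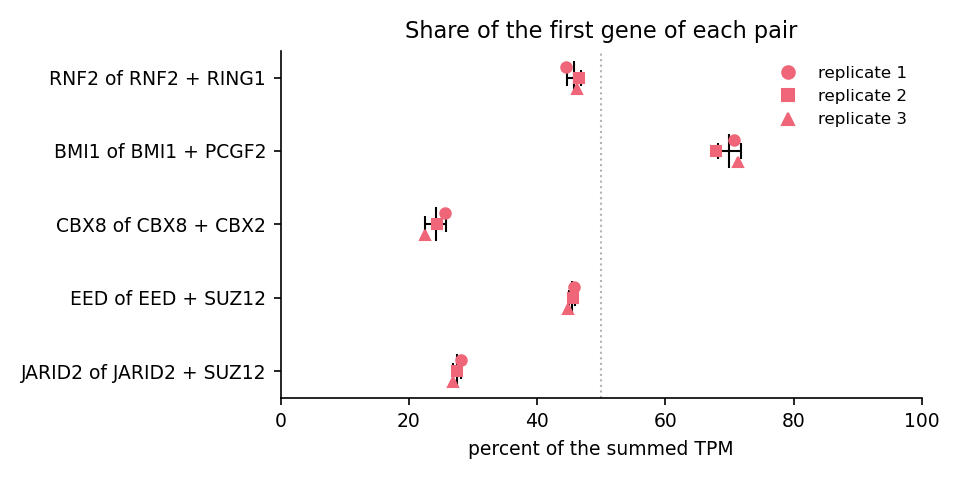
Share of the first-named gene in the summed TPM of each pair (horizontal axis, percent, 0 to 100), with 1 symbol per replicate, bars for the mean ± SD and a dotted line at equal shares. BMI1 alone lies above the line, at 67.9% to 71.4%, RNF2 and EED lie just under it and CBX8 and JARID2 lie between 22.5% and 28.2%.

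Compared within libraries, nearly all of the 9 genes could be ordered. Of 36 pairs, 34 differed past the threshold of adjusted p under 0.05 (limma on within-library differences). So did 97.1%, 98.7%, 98.3%, 98.2%, 97.4%, 97.9%, 97.7% and 95.3% of all other genes set against BMI1, CBX2, RING1, SUZ12, RNF2, PCGF2, EED and CBX8, a background close to the members' own count. With the spread of both genes joined, as below, the same 34 pairs passed, beside 97.2%, 98.5%, 98%, 97.9%, 97.3%, 97.5%, 97.4% and 95.3% of all genes. Both pairs that did not pass were neighbours in the order. SUZ12 and RNF2 differed by 0.05 on the log2 scale (95% interval -0.03 to 0.14, adjusted p = 0.142), and PCGF2 and EED by 0.04 (95% interval -0.03 to 0.11, adjusted p = 0.188). Both passed under other ways of summing. SUZ12 exceeded RNF2 by 0.74 with transcripts of at least 1000 bases (limma adjusted p = 7.96e-07), by 0.94 with reads over the longest transcript (limma adjusted p = 4.54e-07) and by 1.00 with the pseudogene added (limma adjusted p = 4.49e-07). PCGF2 exceeded EED by 0.19 with coding transcripts only (limma adjusted p = 0.000564) and by 0.07 with transcripts of at least 1000 bases (limma adjusted p = 0.0207), and was below EED, at -0.10, with reads over the longest transcript (limma adjusted p = 0.0111).

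The other neighbours differed past the threshold. In every neighbouring pair, those that did not pass included, the gene with the higher mean was higher in all 3 libraries. BMI1 exceeded CBX2 by 0.44 on the log2 scale (95% interval 0.26 to 0.61, limma adjusted p = 0.0022, spread of both genes joined), CBX2 exceeded RING1 by 0.37 (SE 0.02, limma adjusted p = 2.18e-05), and RING1 exceeded SUZ12 by 0.19 (SE 0.02, limma adjusted p = 0.000397). RNF2 exceeded PCGF2 by 0.17 (95% interval 0.06 to 0.27, limma adjusted p = 0.0109, joined), EED exceeded CBX8 by 0.82 (SE 0.05, limma adjusted p = 1.61e-05), and CBX8 exceeded JARID2 by 0.31 (95% interval 0.14 to 0.48, limma adjusted p = 0.0083, joined). The calls of BMI1 over CBX2, RNF2 over PCGF2 and CBX8 over JARID2 were each lost when certain libraries were left out. In the within-library fit limma's adjusted p was 0.0539 for the first without replicate 1. It was 0.0583 and 0.0875 for the second without replicates 2 and 3 in turn, and 0.144 for the third without replicate 2. The log2 differences were then 0.40, 0.13 and 0.16, and 0.31, with SE of 0.20, 0.06 and 0.09, and 0.21. With all libraries the SE in that fit were 0.10, 0.05 and 0.10.

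The way transcripts are summed set several of these orders. Entries shorter than 1000 bases held 56.3% ± 6.13 of the TPM of CBX8, 46.5% of BMI1 and 37.7% ± 1.44 of RNF2 (SD, n = 3), but only 16.2%, 7.91% and 15.05% of their estimated reads. In CBX2 they held 6.47% of the TPM, in EED 1.77%, in JARID2 0.505% and in RING1, SUZ12 and PCGF2 0%. TPM divides reads by the effective length of a transcript, so by construction the same reads weigh more on a short entry than on a long one.

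**Figure D3:**
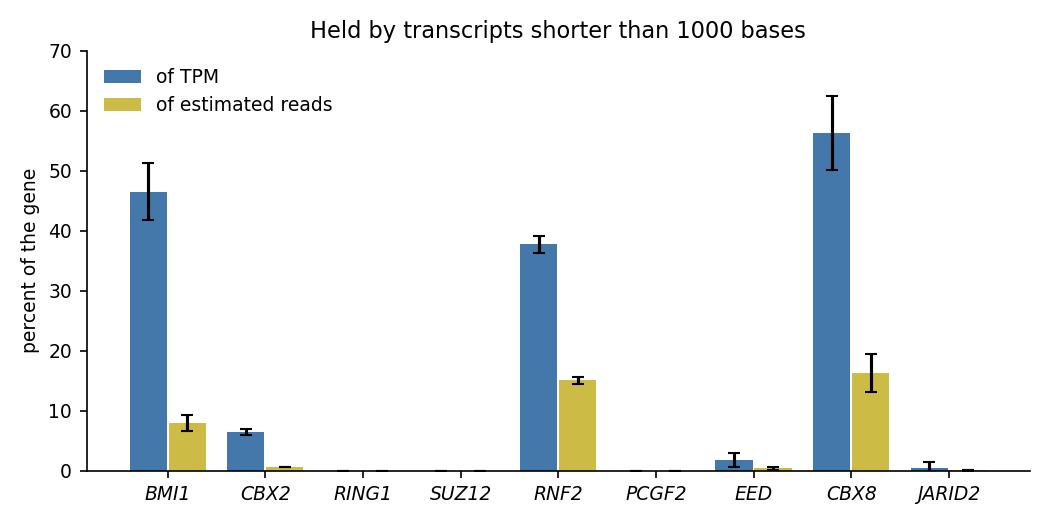
Percent of each gene held by transcripts shorter than 1000 bases (vertical axis from 0), as a share of TPM (blue) and of estimated reads (yellow), as mean ± SD over 3 libraries. In BMI1, RNF2 and CBX8 the share of TPM is 46.5%, 37.7% and 56.3%, well above the share of reads, and in the other 6 genes it is 6.47% or less.

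Counting only transcripts of at least 1000 bases, CBX2 was highest at 57.4 ± 0.912 TPM, followed by RING1 at 47.3, BMI1 at 44.3 ± 0.706, SUZ12 at 41.4, PCGF2 at 35.5, EED at 33.9, RNF2 at 24.9 ± 1.10, JARID2 at 15.7 and CBX8 at 8.50 ± 0.494 TPM (SD, n = 3). BMI1 then fell below CBX2 and RING1, RNF2 below PCGF2 and EED, and CBX8 below JARID2, with all 5 of these reversed pairs past limma's threshold. Dividing each gene's estimated reads by the effective length of its longest transcript gave a similar order, with CBX2 at 52.9, BMI1 at 48.1, RING1 at 47.2, SUZ12 at 40.6, EED at 23.4, PCGF2 at 21.9, RNF2 at 21.2, JARID2 at 15.6 and CBX8 at 10.1 TPM. Leaving out only the transcripts not annotated as protein coding brought BMI1 to 63.4 ± 7.02 TPM, no longer distinguishable from CBX2 at 57.4 ± 0.912 TPM (limma adjusted p = 0.242). JARID2 was at 15.6 to 15.7 TPM and RING1 at 47.1 to 47.3 TPM in each of these ways of summing.

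**Figure D4:**
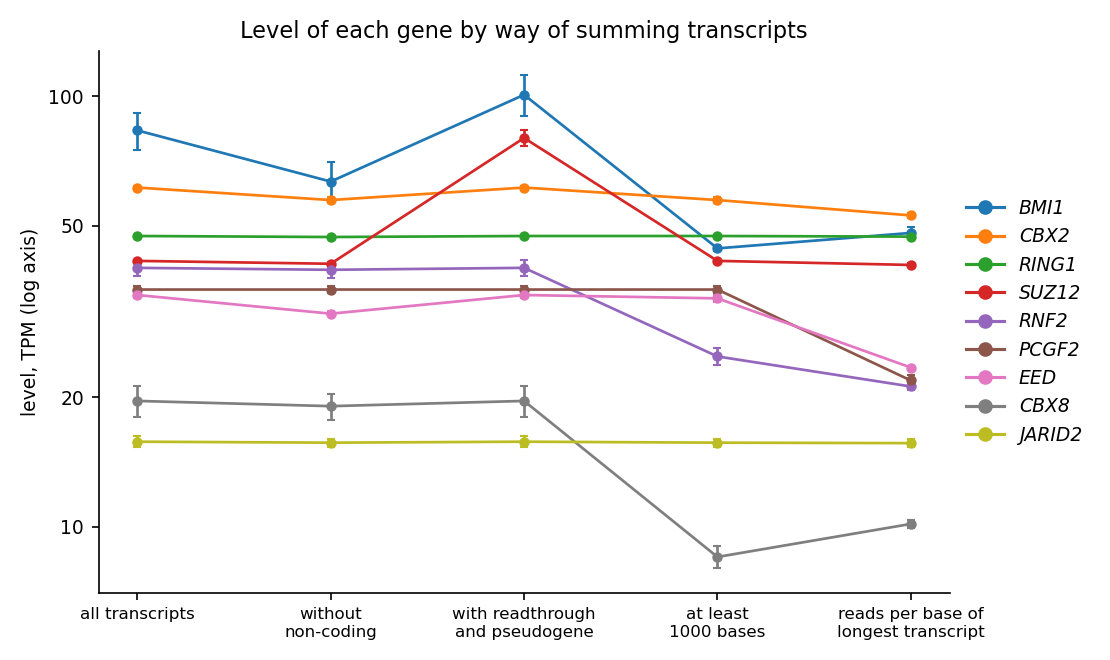
Level of the 9 genes (vertical axis, TPM, log axis) under 5 ways of summing their transcripts, as mean ± SD over 3 libraries, with lines joining the values of a gene. BMI1 moves between 44.3 and 100.8 TPM, SUZ12 rises to 80.0 TPM where the pseudogene is added, CBX8 drops below JARID2 once short transcripts are left out, and RING1 and JARID2 stay level.

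The genes also differed in how closely the libraries repeated each other. The coefficient of variation (CV, the SD as a percent of the mean TPM) was 0.158% in SUZ12, 0.491% in RING1, 1.06% in CBX2, 1.81% in EED, 1.85% in PCGF2, 2.96% in JARID2, 4.20% in RNF2, 8.29% in CBX8 and 9.80% in BMI1. Over the 7416 genes with a mean between 10 and 100 TPM the median CV was 3.83%. SUZ12 and RING1 thus lay at the low end of that range and BMI1 and CBX8 toward the high end. Estimated reads per library ran from 843 to 888 in CBX8 up to 5582 to 5646 in CBX2, for which counting error alone, taken as the inverse square root of the reads, gives a CV of 3.39% and 1.33%. The spread of SUZ12 and RING1 was below their counting errors of 1.55% and 2.40%, as it was in CBX2, EED and PCGF2. In JARID2, RNF2, CBX8 and BMI1 it was above, most of all in BMI1 with its counting error of 1.64%. These are unlike measures, since the counting error takes all reads of a gene alike and summed TPM gives reads on short entries more weight. A spread above it therefore need not exceed the counting error of the sum. Estimated reads in replicates 1, 2 and 3 were 3682, 3620 and 3829 in BMI1 and 843, 879 and 888 in CBX8. With 3 libraries an SD is itself imprecise, and no test was made of these spreads. CBX8 and BMI1 are also the genes with the largest TPM shares in short transcripts, and the part of these in the spread was not tested beyond the transcript values given above.

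Of 47 other genes of the Polycomb system, taken from 4 lists, 46 were above 1 TPM and 1 was below (limma, against 58.5% and 33.9% of all tested symbols). Of 10 other PRC2 genes 9 were above 1 TPM, from 13.4 TPM in PHF1 to 386 TPM in RBBP4, a histone-binding core subunit that also belongs to other chromatin complexes. The gene below was EZHIP, listed as CXorf67 and encoding an inhibitor of PRC2, at 0.275 ± 0.0259 TPM (SD, n = 3, adjusted p = 0.0021). All 12 genes of a list of other canonical PRC1 subunits and Pho-type factors, the latter DNA-binding YY1 and its partners, were above 1 TPM, from CBX7 at 6.96 ± 0.586 to YY1 at 78.6 TPM, as were all 17 genes of the variant PRC1 complexes, which carry RYBP or YAF2 in place of a CBX subunit, from YAF2 at 17.02 to FBRSL1 at 133 TPM. All 8 opposing factors, enzymes that remove Polycomb marks and their ASXL cofactors, were above too, from ASXL3 at 1.74 ± 0.634 TPM to the H2A deubiquitinase BAP1 at 115 TPM. ASXL3, at 1.34, 1.41 and 2.47 TPM, was called by a small margin (adjusted p = 0.0285), and lost the call whichever library was left out (adjusted p from 0.0503 to 0.0762).

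**Figure D5:**
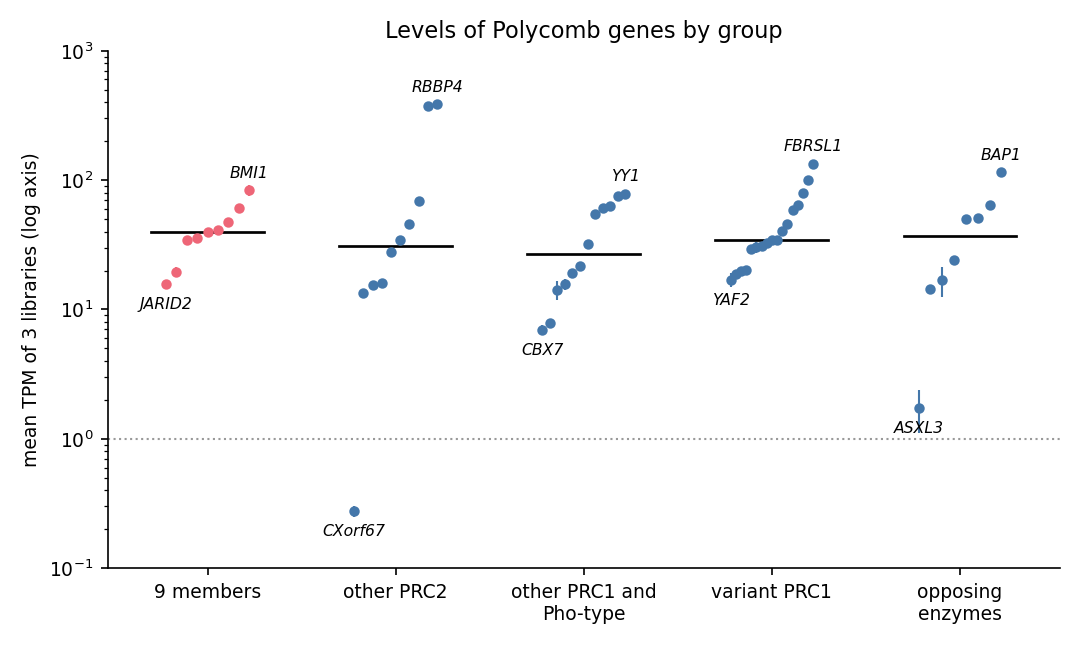
Mean TPM of 3 libraries (vertical axis, log axis) for the 9 members and 4 lists of other Polycomb genes, with a bar for each list's median, vertical lines for the SD and a dotted line at 1 TPM. The highest and lowest gene of each group are named, and only CXorf67, at 0.275 TPM, lies under the line.

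Within their families, the members were not always the leading genes. CBX6 at 75.8 ± 2.44 TPM stood above CBX2, and CBX7, at 6.96 TPM, stood below CBX8 (SD, n = 3). Of the PCGF genes BMI1 was highest by summed TPM, followed by PCGF3 at 40.5 ± 0.885, PCGF2 at 35.5, PCGF6 at 34.3 ± 1.27, PCGF1 at 29.5 ± 0.150 and PCGF5 at 18.7 ± 0.348 TPM (SD, n = 3). BMI1 was at 44.3 TPM when only its transcripts of at least 1000 bases were counted. These family orders were read from the means and were not tested.

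The genes whose levels ran closest to those of the highest and the median member were SMPD4 for BMI1 and CADM1 for RNF2. The largest absolute log2 difference over the 3 libraries was 0.07 for SMPD4, at 83.3, 77.8 and 84.7 TPM, and 0.02 for CADM1, at 37.6, 40.8 and 40.4 TPM. With 3 libraries of a single group, such likeness describes equal abundance in these libraries and nothing further.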

How the data were processed

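The labels give 3 untreated HEK293T libraries in 1 group. The authors quantified transcripts with kallisto on hg38, per the submitters' processing notes. Its version, options, strand setting and transcript release are not given in the sources used here. For each transcript the deposited table holds TPM for each replicate, which the authors scaled within libraries, and 1 column of deposited estimated counts that names no library. These counts, over effective length, matched replicate 1 (largest relative difference 1.08e-05) and served only as a check, so a count test was not used. Depth was estimated from the step size of low values: 19.2%, 19.0% and 19.5% fell no further than 0.02 reads from whole reads, where 4% would by chance. The effective lengths of replicate 1 were used for all libraries when reads were estimated.

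TPM was summed by symbol. GENCODE release 29, which may not be the authors' release, matched 90.4% of transcripts, 99.6% of these with equal length, and gave positions, types and 31-base words. Words were compared as written 5′ to 3′ and among matched transcripts only. Sharing with antisense sequence or with unmatched entries was therefore not examined for any gene. Promoter windows are from RefSeq. Levels were tested with limma 3.58.1 (R 4.3.3) on log2(TPM + 0.01) against 1 TPM, with a trend and Benjamini-Hochberg adjustment over the 21990 symbols above 0 in at least 1 library. Pairs were tested on within-library differences of log2(TPM + 0.1), adjusted over 21989 genes, and read from the fit whose reference was the more abundant member. In that fit the spread of a variable reference is shared by every row, which gave extremely small p for BMI1. An alternative that joins the moderated spreads of both genes was therefore added after seeing the data. It gave the same 34 calls. For the sums over all transcripts in all 3 libraries, its p and interval are printed where BMI1, RNF2 or CBX8 is the more abundant gene. It was not run for the alternatives, whose printed p are from the within-library fit. Log2 differences include the pseudocount and understate those of low genes. The tests were checked on simulated data, in which both pair fits, the joined one more so, gave small unadjusted p for equal pairs too often against a reference as variable as BMI1, so the p of such pairs are too small.

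The members and lists were chosen with earlier results of these data known. Named genes are the 9 members, of each list the highest, the lowest and any gene below 1 TPM or undecided, the CBX and PCGF families, COMMD3-BMI1, SUZ12P1, the nearest gene to the highest, median and lowest member, and transcripts with at least 10% of a gene's TPM or the main one. Some of these are not reported here. PHF1, JARID2-AS1 and smaller transcripts were named after their values were seen. Alternatives covered pseudocounts, filters, levels, TMM scaling (edgeR 4.0.16, for scaling only), mitochondrial genes, transcript classes and left-out replicates. Summing over transcripts of at least 1000 bases and reads over the longest transcript were added after seeing the data.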

Additional observations from a re-analysis of the deposited data

How the results depend on the processing

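Over the alternatives, 450 of the recomputed values were unchanged, 27 moved, 10 reversed, 5 newly passed the threshold and 11 no longer passed it. A tested difference was unchanged if it kept its direction and side of the threshold. For a share, unchanged meant a move smaller than the spread between replicates. Leaving out a library cannot move a mean share that far. Shares recomputed without a replicate therefore count as unchanged by construction and say nothing about robustness. A count was unchanged if it stayed within a fixed ratio of the count reported. All 9 members were above 1 TPM in every alternative run. The number of ordered pairs ran from 32 (without replicate 2) to 36 (transcripts of at least 1000 bases), and from 32 to 33 when a replicate was left out. With transcripts of at least 1000 bases, the log2 differences were -0.37 for BMI1 minus CBX2, -0.52 for RNF2 minus PCGF2 and -0.88 for CBX8 minus JARID2. With reads over the longest transcript, they were -0.14, -0.046 and -0.62, and PCGF2 minus EED was -0.10. With readthrough and pseudogene added, RING1 minus SUZ12 was -0.75. Of these alternatives, some sum other entries and reads over the longest transcript divide the same reads by another length, so the order changed through their construction. RNF2 exceeded PCGF2 with an adjusted p of 0.0762 in limma without a trend.

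The share of RNF2 with RING1 was 49.7% of reads, 34.4% with transcripts of at least 1000 bases and 30.96% with reads over the longest transcript. That of CBX8 with CBX2 was 13.4%, 12.9% and 16.1% in the same order. BMI1 made up 63.9% with coding transcripts only, 73.8% with readthrough added and 55.5% with transcripts of at least 1000 bases. EED with SUZ12 made up 43.4% with coding transcripts, 25.6% of reads and 36.6% with reads over the longest transcript, and JARID2 33.3% of reads. As a share of reads, the main transcript by TPM held 62.1% in EED, 91.2% in SUZ12, 14.8% in RNF2, 92.1% in BMI1, 38.4% in PCGF2, 97.2% in CBX2 and 83.8% in CBX8.

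The number of other Polycomb genes left undecided, 0 in the values reported, was 1 (ASXL3) at a level of 2 TPM, with coding transcripts only, without a trend, with reads over the longest transcript and, when replicates were left out, from 1 to 1. ASXL3 differed from the level by -0.26 at 2 TPM and by -0.12 with coding transcripts only. The cause was not tested. TPM keeps no depth, so precision rests on the spread of 3 libraries. No paired analysis was possible because all libraries belong to 1 group.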
